A study of Danio rerio with 12 samples.

Results

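Genes of the AP-1 transcription factor family were followed through cell populations from the adult zebrafish kidney. The 10 genes were taken by name: the Fos genes fosab, fosaa, fosb, fosl1a and fosl2, the Jun genes jun, junba, junbb and jund, and atf3. Each was found by symbol among the 32047 gene identifiers of the deposited tables, by a lookup that used no measured value. The family itself was chosen with earlier results of these data known. The gene name table lists fosab as FOS (ENSDARG00000031683), fosb as FOSB (ENSDARG00000055751) and fosl1a as FOSL1 (ENSDARG00000015355). It gives the single symbol JUNB to a pair of identifiers, ENSDARG00000074378 and ENSDARG00000104773, without saying which is junba and which junbb, so they are named here by identifier. The other members are fosaa (ENSDARG00000040135), fosl2 (ENSDARG00000040623), jun (ENSDARG00000043531), jund (ENSDARG00000067850) and atf3 (ENSDARG00000007823).

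AP-1 is a family of leucine zipper proteins that bind DNA in pairs. Fos proteins cannot pair stably with themselves and bind as partners of Jun proteins, whereas Jun proteins also pair with each other and ATF3 pairs with Jun proteins. Many of their genes are immediate early genes: growth factors, cytokines and stress switch them on within minutes through MAP kinases and serum response factor, without new protein synthesis. In mouse tissues the same genes are known to be induced while cells are dissociated and sorted, so that cell type and handling cannot be told apart from levels in sorted cells.

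All cells came from adult, wild-type fish and from the kidney, the main blood-forming organ of fish, but not all were profiled without culture. The niche set held ZKS cells, pericytes, titled by the receptor gene pdgfrb, and sinusoids, whose titles give high acetylated low-density lipoprotein (Ac-LDL), a ligand that scavenging endothelium takes up. A stromal cell line of zebrafish kidney carries the same name, ZKS, and whether the profiled ZKS cells had been grown in culture is not stated in the labels. In comparisons with ZKS cells, culture and cell type therefore cannot be told apart. The other set was made of double positive (DP) cells, gata2a+ runx1+, in 3 states: co-cultured with ZKS cells and given IWR-1-endo, a tankyrase inhibitor that blocks Wnt signalling, and Thpo, the cytokine thrombopoietin (treated below); co-cultured with ZKS cells alone; or uncultured. Each of the 6 groups had 2 Quartz-seq libraries, made by poly(A) tailing and PCR amplification of cDNA. No label says that the libraries of a group came from separate animals or cultures, so the p-values rest on the spread between libraries that may be technical replicates.

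The niche libraries held 6984492 to 16242092 reads, and 3 reads corresponded to 0.185 to 0.43 CPM (read counts scaled so that every library has the same total). DP depth could not be read from the values and is unknown; 7329 to 9712 genes were above 0 in them, against 15545 to 20626 in the niche libraries. PDGFRB was at 31.0 and 31.6 CPM in ZKS cells, against 125.5 and 123.8 CPM in pericytes and against 1.2 and 3.14 CPM in sinusoids. The pericyte list (12 identifiers) summed highest in pericyte libraries, at 2751 and 2043 CPM. Unlike PDGFRB, this sum was lower in ZKS libraries (156.8 and 194.2 CPM) than in sinusoid libraries (582.7 and 979.0 CPM). Of 11 tested identifiers, limma called 8 higher and 0 lower in pericytes than in sinusoids. In ZKS cells it called 0 higher and 10 lower than in pericytes, and 3 higher and 4 lower than in sinusoids. A list of 4 sinusoidal scavenger genes summed to 12860 CPM or more in sinusoids and 26.6 CPM or less in the other niche libraries. Of the genes of the DP sort, GATA2 (ENSDARG00000059327) was at 319.8 and 9.1 CPM in treated, 33.1 and 127.9 CPM in co-cultured and 45.3 and 177.5 CPM in uncultured libraries, and RUNX1 was at 0 and 0 CPM in treated, 0.1 and 0 CPM in co-cultured and 6.3 and 6.1 CPM in uncultured libraries. Markers of other cells differed between the niche groups. The macrophage list (12 identifiers) summed to 0.87 and 1.1 CPM in ZKS cells, against 3216 and 4362 CPM in pericytes and against 467.4 and 1013 CPM in sinusoids, and cd74a made up 2432 and 3251 CPM of the pericyte sums. The MFAP4 copies ENSDARG00000116066 (490.7 and 835.3 CPM) and ENSDARG00000111491 (192.0 and 166.2 CPM) added to these sums but were at 3.44 CPM or less in sinusoids. IRF8 had the reverse order, with sinusoid libraries (226.5 and 636.6 CPM) above pericyte libraries (58.1 and 97.4 CPM). Of 10 tested identifiers of the list, limma called 3 higher and 3 lower in pericytes than in sinusoids. The neutrophil list (4 identifiers) summed to 0.32 and 1.62 CPM in ZKS cells, against 1003 and 619.4 CPM in pericytes and against 2739 and 681.2 CPM in sinusoids. The erythroid list (5 identifiers) summed to 0.33 and 0.81 CPM in ZKS cells, against 325.6 and 429.8 CPM in pericytes and against 2000 and 723.7 CPM in sinusoids. The ZKS and stromal list (7 identifiers) summed to 1799 and 1640 CPM in ZKS cells, against 7462 and 7608 CPM in pericytes and against 47.6 and 35.7 CPM in sinusoids. COL1A2 made up 5651 and 5990 CPM of the pericyte sums. PRRX1 (ENSDARG00000033971) had the reverse order, at 1077 and 943.4 CPM in ZKS cells and 98.1 and 68.3 CPM in pericytes. Of the 7 identifiers, limma called 1 higher and 4 lower in ZKS cells than in pericytes. Renal tubule genes set the sinusoid libraries apart from each other, with CDH17 at 365.8 and 0.12 CPM and atp1a1a.4 at 573.3 and 0.86 CPM in replicates 1 and 2. They also differed between pericytes and ZKS cells. CDH17 was at 70.7 and 141.7 CPM in pericytes, against 2.16 and 1.21 CPM in ZKS cells. atp1a1a.4 was at 126.7 and 186.4 CPM in pericytes, against 0 and 0.3 CPM in ZKS cells. Of 6 tested identifiers of this list, limma called 3 lower and 0 higher in ZKS cells than in pericytes. The part of these cells in the results below was not tested. In bulk libraries such as these, fewer cells of a type and less RNA per cell cannot be told apart.

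The 10 AP-1 genes together took 0.559% and 0.514% of all reads in the ZKS libraries, 6.08% and 5.87% in the pericyte libraries and 1.17% and 1.47% in the sinusoid libraries. ZKS libraries were lowest and pericyte libraries highest, and no groups overlapped. The share of all genes whose niche groups lie in separate ranges was not counted. A lack of overlap between niche groups, here and below, is therefore a description only. The share of that sum that fell to Jun genes was 82.3% and 85.4% in ZKS cells, against 75.1% and 72.8% in pericytes and against 56.9% and 53.6% in sinusoids. atf3 made up 2.45% and 2.12% of the sum in ZKS cells, against 1.18% and 1.52% in pericytes and against 14.4% and 16.2% in sinusoids. Gene lengths were not available here, so these shares, like all levels, are compared between libraries and not between genes.

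Among the Fos genes, fosab, the zebrafish c-Fos gene, was at 51.4 and 32.8 CPM in ZKS cells, against 9347 and 9322 CPM in pericytes and against 1577 and 1807 CPM in sinusoids. fosb, its inducible paralogue, was at 18.7 and 12.7 CPM in ZKS cells, against 1066 and 1237 CPM in pericytes and against 248.7 and 300.6 CPM in sinusoids. The 3 groups did not overlap for either gene and stood in the same order, with ZKS cells lowest and pericytes highest. The log2 change of fosab in ZKS cells was -8.15 ± 0.34 against pericytes and -5.62 ± 0.34 against sinusoids (SE; limma, adjusted p = 6.61e-05 and 0.000116). That of fosb was -6.48 ± 0.33 and -4.35 ± 0.33 (limma, adjusted p = 0.000101 and 0.000283). Of the 15916 niche genes tested, 58 had a lower log2 change than fosab in ZKS cells against pericytes, where it ranked 59 from the lowest.

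The Fra-1 gene fosl1a, whose protein in mammals lacks the strong activation domain of c-Fos, was at 738.4 and 564.0 CPM in ZKS cells, against 3929 and 4436 CPM in pericytes and against 1353 and 1924 CPM in sinusoids. Its groups stood in the same order without overlap, at smaller distances: -3.06 ± 0.39 in ZKS cells against pericytes and -1.62 ± 0.39 against sinusoids (log2 change, SE; limma, adjusted p = 0.00184 and 0.0196). The change against sinusoids did not pass the threshold of 0.05 without ZKS replicate 1 (adjusted p = 0.0957) or without ZKS replicate 2 (adjusted p = 0.162). The Fra-2 gene fosl2 had another order. It was at 42.5 and 29.7 CPM in ZKS cells, against 98.5 and 79.9 CPM in pericytes and against 176.3 and 411.2 CPM in sinusoids, so that sinusoids were highest and also spread most. Its log2 change in ZKS cells was -3.18 ± 0.53 against sinusoids (SE; limma, adjusted p = 0.00526) and -1.65 ± 0.53 against pericytes (limma, adjusted p = 0.0482). The change against pericytes missed the threshold whichever of the 4 libraries compared was left out: its adjusted p was 0.118 and 0.207 with ZKS replicates 1 and 2 left out, and 0.168 and 0.128 with pericyte replicates 1 and 2 left out. fosaa, the second c-Fos copy of zebrafish, was barely detected: 2 and 2 reads in ZKS cells, against 9 and 8 reads in pericytes and against 2 and 0 reads in sinusoids. Its levels in ZKS cells and sinusoids were at or under 3 reads, and it entered the test only through the pericyte libraries (log2 change in ZKS cells against pericytes -0.99 ± 0.30, SE; limma, adjusted p = 0.0404; 0.271 without ZKS replicate 1 and 0.281 without ZKS replicate 2).

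**Figure D1:**
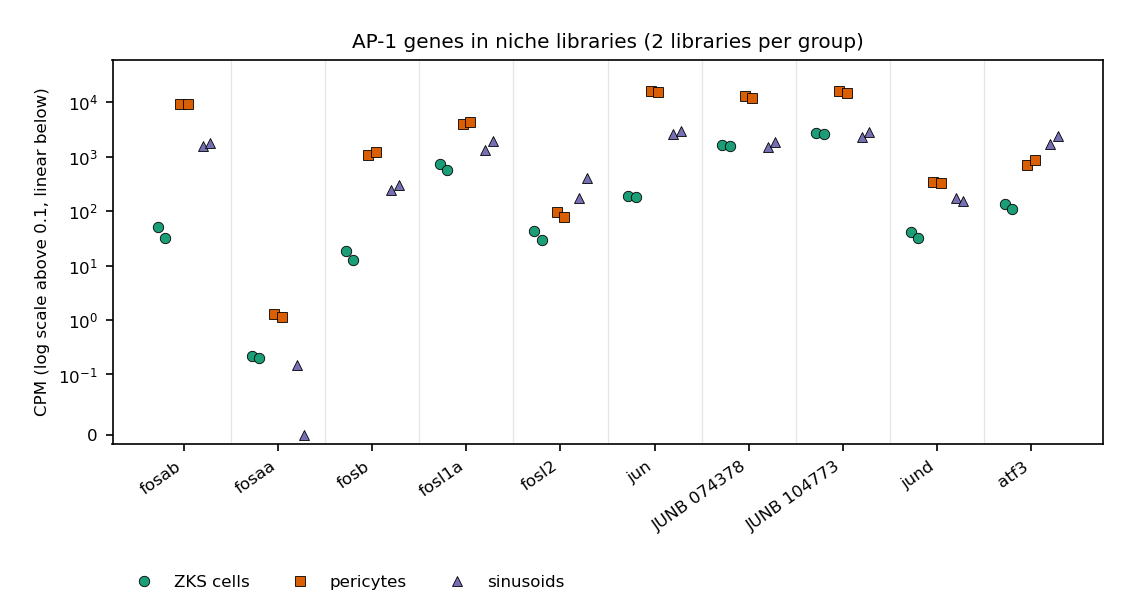
CPM of each of the 10 AP-1 genes in the ZKS, pericyte and sinusoid libraries, on an axis that is logarithmic above 0.1 CPM and linear below it; each point is 1 library, and the JUNB copies carry the last 6 digits of their identifiers. fosab, fosb, fosl1a, jun and jund rank ZKS cells lowest and pericytes highest, the JUNB copies stand apart in pericytes, and atf3 and fosl2 are highest in sinusoids.

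Among the Jun genes, jun, the c-Jun gene, was at 187.6 and 178.9 CPM in ZKS cells, against 15957 and 15573 CPM in pericytes and against 2612 and 3026 CPM in sinusoids. Replicates lay close together and the groups far apart: the log2 change in ZKS cells was -6.78 ± 0.33 against pericytes and -4.23 ± 0.33 against sinusoids (SE; limma, adjusted p = 9.54e-05 and 0.000292). jund, which codes for a Jun protein that in mammals is present in resting cells and less inducible, was at 41.3 and 32.2 CPM in ZKS cells, against 344.4 and 330.5 CPM in pericytes and against 176.6 and 150.8 CPM in sinusoids. Its groups stood in the order of jun with smaller distances, -3.53 ± 0.25 against pericytes and -2.42 ± 0.25 against sinusoids (log2 change in ZKS cells, SE; limma, adjusted p = 0.000258 and 0.000861).

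The JUNB copies, whose protein in mammals often restrains c-Jun, differed from jun in ZKS cells. The copy ENSDARG00000074378 was at 1671 and 1545 CPM in ZKS cells, against 13045 and 11937 CPM in pericytes and against 1532 and 1838 CPM in sinusoids. The copy ENSDARG00000104773 was at 2700 and 2635 CPM in ZKS cells, against 16279 and 14876 CPM in pericytes and against 2345 and 2877 CPM in sinusoids. For both copies the ZKS and sinusoid libraries overlapped, and the pericyte libraries lay above them all. In ZKS cells against pericytes the log2 changes were -3.32 ± 0.35 for ENSDARG00000074378 and -2.91 ± 0.38 for ENSDARG00000104773 (SE; limma, adjusted p = 0.00103 and 0.00203). Against sinusoids no change was called (limma, adjusted p = 0.481 and 0.643), with 95% confidence intervals of the log2 change from -1.20 to 0.48 and from -1.16 to 0.64. The intervals leave room for a change of about 1 log2 unit, and without TMM scaling, on CPM as deposited, the value of ENSDARG00000104773 turned from -0.26 to 0.04. Without sinusoid replicate 2 the values of ENSDARG00000074378 and ENSDARG00000104773 were 0.001 and 0.118. Reads of the pair may have been split between the copies in counting, which leaves the value of each copy uncertain.

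atf3, the stress-induced member, whose protein in mammals represses many promoters as a dimer with itself, was at 136.9 and 108.8 CPM in ZKS cells, against 719.9 and 890.0 CPM in pericytes and against 1685 and 2389 CPM in sinusoids. Sinusoids were highest and ZKS cells lowest, without overlap. Its log2 change in ZKS cells was -3.07 ± 0.37 against pericytes and -4.32 ± 0.37 against sinusoids (SE; limma, adjusted p = 0.00157 and 0.000419).

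In ZKS cells against pericytes, 9 of the 9 AP-1 genes other than fosaa were called lower, where 22.0% of all 15916 genes tested were called lower and 37.2% were called in either direction. fosaa is left out of this count and the next ones because it passed the filter only through the pericyte libraries, where it is highest. Without TMM scaling, on CPM as deposited, the calls over all genes split into 3168 higher and 3021 lower in ZKS cells, against 2414 higher and 3504 lower with TMM. The median log2 change was -3.32 over the 9 genes and -0.15 over all genes, and the median of all genes was 0.098 without TMM scaling. Under each of 12 settings tried, including each of the 4 libraries compared left out in turn, 8 were called: fosab, fosb, fosl1a, jun, both JUNB copies, jund and atf3. With ZKS replicate 1 left out 1945 genes were called, with ZKS replicate 2 left out 1832, and with pericyte replicate 2 left out 3865, against 5918 with all libraries.

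In ZKS cells against sinusoids, 7 of the same 9 were called lower, where 17.9% of all genes were called lower, 13.7% higher and 31.6% were called in either direction. The JUNB copies were not called. Without TMM scaling, the calls over all genes split into 2633 higher and 2528 lower in ZKS cells, against 2180 higher and 2844 lower with it. The median log2 change was -3.18 over the 9 genes and -0.12 over all genes (0.033 without TMM scaling), and fosab, fosb, fosl2, jun, jund and atf3 were called under each of the 12 settings. The count over all genes was 1879 without ZKS replicate 1 and 1792 without ZKS replicate 2, against 5024 with all libraries. Both comparisons share the ZKS libraries, so their values are not independent of each other.

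In pericytes against sinusoids, 7 of the 9 were called higher, where 14.4% of all genes were called higher, and 1, atf3, was called lower, where 10.9% were called lower and 25.4% were called in either direction. The median log2 change was 2.13 over the 9 genes and -0.06 over all genes. The JUNB copy ENSDARG00000074378 had the largest log2 change, 2.96 ± 0.35 (SE; limma, adjusted p = 0.00231), followed by ENSDARG00000104773 at 2.65 ± 0.38, jun at 2.56 ± 0.33, fosab at 2.53 ± 0.34 and fosb at 2.13 ± 0.33 (limma, adjusted p = 0.00415, 0.00287, 0.00325 and 0.00568). These 5 lay within 1 log2 unit of each other, with SEs of 0.33 to 0.38. Smaller changes were called for fosl1a (1.44 ± 0.39, adjusted p = 0.0356), jund (1.11 ± 0.25, adjusted p = 0.0205) and atf3 (-1.26 ± 0.37, adjusted p = 0.0482). The call of atf3 was lost without pericyte replicate 1 (adjusted p = 0.176), pericyte replicate 2 (0.114) or sinusoid replicate 2 (0.109). The calls of fosl1a and jund were lost without pericyte replicate 1 (0.0988 and 0.0642) and without pericyte replicate 2 (0.15 and 0.0715). fosaa had a log2 change of 1.14 ± 0.30 on its few reads (adjusted p = 0.0342; 0.059 without sinusoid replicate 1 and 0.119 without sinusoid replicate 2). fosl2, with lower values in pericytes, was not called (-1.53 ± 0.53, adjusted p = 0.0786, 95% confidence interval -2.79 to -0.26), although it was called without sinusoid replicate 1 (adjusted p = 0.00859) and with CPM as deposited (adjusted p = 0.0392). With fosaa counted, 9 members were called with all libraries, 5 when either pericyte replicate was left out, and 3 with edgeR on recovered reads, and fosab, fosb and the JUNB copy ENSDARG00000074378 were called under each of the 12 settings. Over all genes, leaving out pericyte replicate 1 gave 2564 calls, leaving out pericyte replicate 2 gave 1981 and leaving out sinusoid replicate 2 gave 2541, against 4036 with all libraries.

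**Figure D2:**
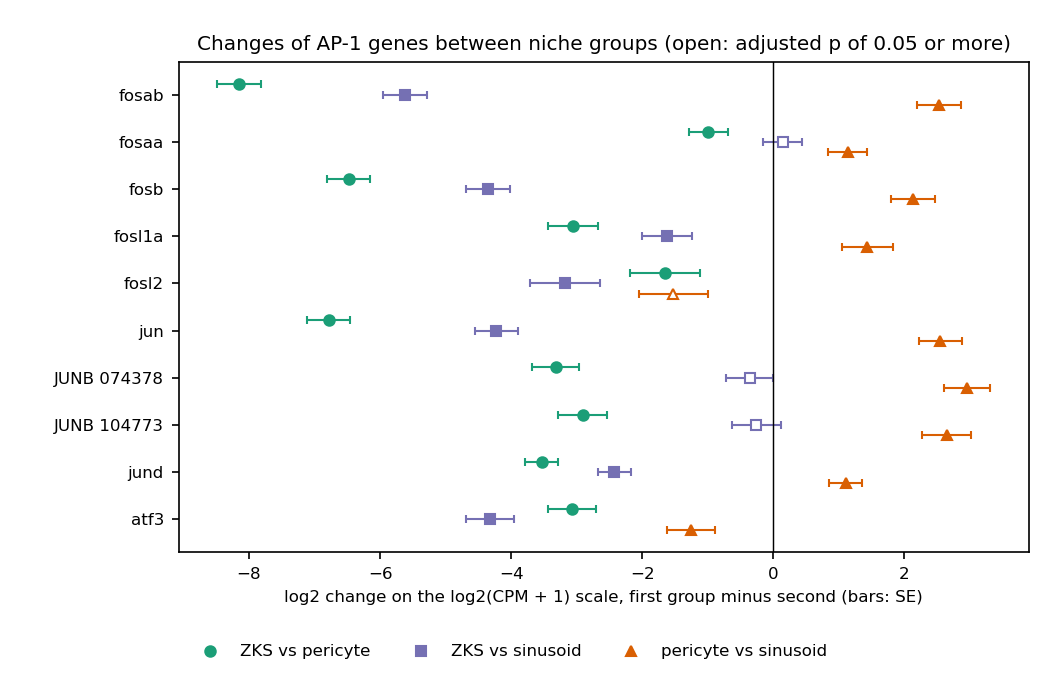
Log2 change of each AP-1 gene on the log2(CPM + 1) scale in the 3 niche comparisons, first group minus second; bars are the SE from limma, and open symbols have an adjusted p of 0.05 or more. In ZKS cells fosab, jun and fosb lie farthest below 0 (-8.15, -6.78 and -6.48 against pericytes), both JUNB copies lie near 0 against sinusoids, and atf3 and fosl2 are the 2 genes below 0 in pericytes against sinusoids.

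The balance between AP-1 genes within a library differed between the groups. A ratio of 2 genes within a library carries their lengths, which cancel when libraries are compared, and scaling between libraries does not enter it. The JUNB copy ENSDARG00000104773 stood to jun at 14.4 and 14.7 in ZKS cells, against 1.02 and 0.955 in pericytes and against 0.898 and 0.951 in sinusoids (ratios of CPM). The copy ENSDARG00000074378 stood to jun at 8.91 and 8.63 in ZKS cells, against 0.818 and 0.767 in pericytes and against 0.586 and 0.608 in sinusoids. Relative to jun, both JUNB copies were thus far higher in ZKS cells than in either of the other groups.

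Among the Fos genes the ratio of fosl1a to fosab was 14.4 and 17.2 in ZKS cells, against 0.420 and 0.476 in pericytes and against 0.858 and 1.06 in sinusoids. That of fosl2 to fosab was 0.828 and 0.904 in ZKS cells, against 0.0105 and 0.00857 in pericytes and against 0.112 and 0.228 in sinusoids. In both ratios the ZKS libraries were highest and the pericyte libraries lowest. The ratio of fosab to jun, a Fos gene to a Jun gene, was 0.274 and 0.183 in ZKS cells, against 0.586 and 0.599 in pericytes and against 0.604 and 0.597 in sinusoids. Pericytes and sinusoids overlapped in this ratio, although both genes were over 5 times higher in pericytes by mean CPM (5.52 times for fosab and 5.59 times for jun). The ratio of atf3 to jun was 0.730 and 0.608 in ZKS cells, against 0.0451 and 0.0571 in pericytes and against 0.645 and 0.790 in sinusoids, so that pericytes stood apart and the other groups overlapped. With the JUNB copy ENSDARG00000104773 in place of jun, the ratio was 0.0507 and 0.0413 in ZKS cells and 0.0442 and 0.0598 in pericytes. In sinusoids it was 0.719 and 0.831, so that sinusoids stood apart and the other groups overlapped. Which group stood apart for atf3 thus depended on the Jun gene it was set against. These ratios were not tested, with 2 libraries a group.

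**Figure D3:**
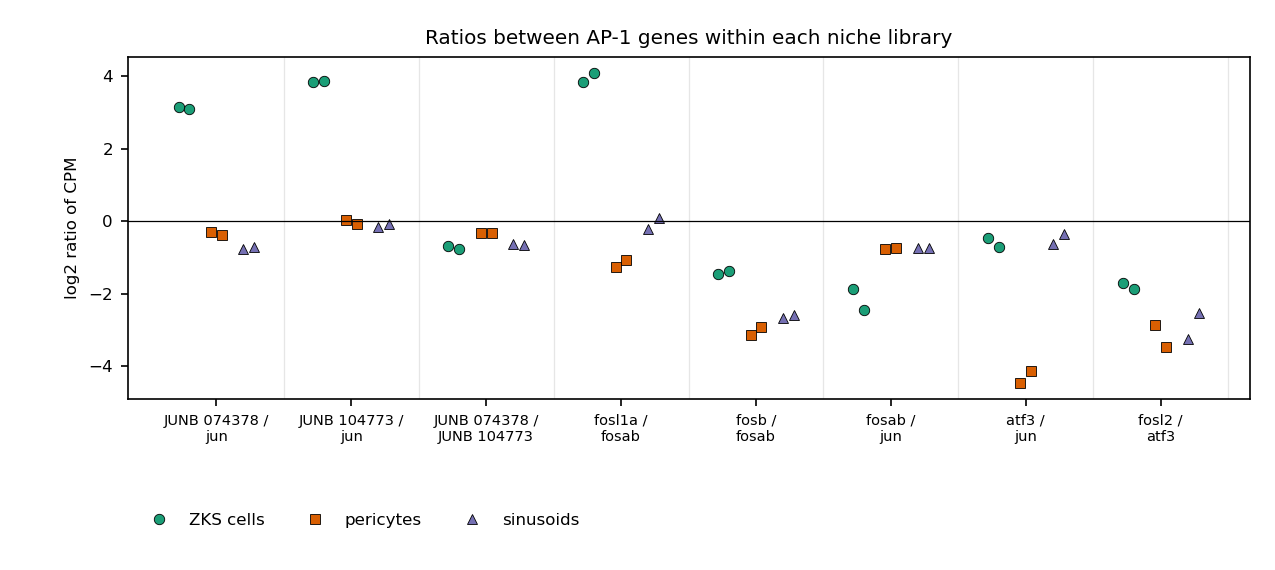
Log2 ratio of the CPM of pairs of AP-1 genes within each niche library; each point is 1 library. The JUNB to jun and fosl1a to fosab ratios lie above 3 in ZKS cells and between -1.25 and 0.09 elsewhere, and the atf3 to jun ratio is lowest in pericytes.

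Over the 6 niche libraries, fosab, fosb, jun and jund followed each other with Pearson r of 0.996 or more on the log2 scale, and the JUNB copies followed each other at 0.999. fosl2 and atf3 formed another pair (r = 0.951). atf3 followed fosab, fosb, jund and jun at 0.825, 0.817, 0.821 and 0.782, and the JUNB copies at 0.342 and 0.327. These values describe 3 pairs of replicates whose group means set most of the correlation, and they carry no test. The genes outside the family most like fosab over the same libraries, among 15916, were EHMT1 (r = 0.9986), ETNK1, rtn1a, si:dkey-29d8.3 and SLC7A9. Those most like jun were SESN1 (r = 0.9991), cd74a, krt94, TTPA and foxo3b. Of these, cd74a stands on the macrophage list above, but it was also at 2883.9 CPM or more in every DP library. For the JUNB copy ENSDARG00000104773 they were NIBAN1 (r = 0.9994), SIK2, ABCC9, thbs2a and AEBP1, and for atf3 they were ugt5b4 (r = 0.9991), CERKL, SLC37A1, IRF8 and SEPTIN9. Genes outside the family with r of 0.99 or more numbered 46 for fosab, 57 for jun, 33 for this JUNB copy and 77 for atf3. IRF8, another gene of the macrophage list, was at 0 and 0.20 CPM in ZKS cells, against 58.1 and 97.4 CPM in pericytes and against 226.5 and 636.6 CPM in sinusoids.

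Genes around AP-1 were read as 4 lists. The counts and medians of the lists and of all genes include genes that passed the filter only through the group where they are high. For such genes the direction was set by the filter. Of 44 tested genes of a list of other immediate early and dissociation-sensitive genes, 32 fell and 1 rose in ZKS cells against pericytes, with a median log2 change of -2.75; these are 72.7% lower and 2.27% higher, against 22.0% lower and 15.2% higher over all genes. The fallen genes with the smallest adjusted p were the cytokine signalling inhibitor SOCS3 (ENSDARG00000025428; mean 20.62 CPM in ZKS cells, against 24160 CPM in pericytes, log2 change -10.49 ± 0.38), CEBPD (7.89 and 767.0 CPM), CSRNP1 (184.9 and 3110 CPM) and MYC (ENSDARG00000007241; 95.6 and 3826 CPM; limma, adjusted p = 5.6e-05 to 0.000207 for the 4). The gene that rose was DUSP6, a phosphatase that acts on ERK (38.9 CPM in ZKS cells, against 4.58 CPM in pericytes, log2 change 2.52 ± 0.33; limma, adjusted p = 0.00203). Against sinusoids 24 fell and 5 rose (median -1.63), or 54.5% and 11.4% against 17.9% and 13.7% of all genes; those that rose were DUSP2, DUSP5, egr1, egr2a and EGR3, of which egr1 averaged 626.6 CPM in ZKS cells and 175.4 CPM in sinusoids (log2 change 1.56 ± 0.28; limma, adjusted p = 0.00734). In pericytes against sinusoids 19 rose and 4 fell (median 1.095), or 43.2% and 9.09% against 14.4% and 10.9% of all genes. egr1 rose there (2503 CPM in pericytes and 175.4 CPM in sinusoids; log2 change 3.89 ± 0.28; limma, adjusted p = 0.00041), and DUSP6, klf2b, TNFAIP3 and the HSPA8 copy ENSDARG00000068992 fell. In ZKS cells, egr1 was thus called in opposite directions against the other niche groups, lower than in pericytes (log2 change -2.33 ± 0.28; limma, adjusted p = 0.00164) and higher than in sinusoids, whereas fosab and jun were lower against both.

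Other AP-1 and bZIP partners moved in both directions: of 25 tested, 5 rose and 6 fell in ZKS cells against pericytes (median -0.32), 6 rose and 8 fell against sinusoids (median -0.68), and 3 rose and 2 fell in pericytes against sinusoids (median -0.05). Against pericytes these shares, 20% higher and 24% lower in ZKS cells, lay near those of all genes, 15.2% and 22.0%. In ZKS cells against sinusoids they were 24% and 32%, against 13.7% and 17.9% of all genes, and in pericytes against sinusoids 12% and 8%, against 14.4% and 10.9%. JDP2 (ENSDARG00000020133), a partner of Jun proteins that represses AP-1 in mammals, had the smallest adjusted p of the list in ZKS cells against pericytes. It was at 11.7 and 15.9 CPM in ZKS cells, against 1954 and 2630 CPM in pericytes and against 194.0 and 215.2 CPM in sinusoids, an order shared with fosab and jun (log2 change -7.62 ± 0.34 against pericytes and -4.09 ± 0.34 against sinusoids, SE; limma, adjusted p = 7.21e-05 and 0.000371). fosl1b, the paralogue of fosl1a, was highest in ZKS cells: 41.7 and 50.9 CPM in ZKS cells, against 0.29 and 0 CPM in pericytes and against 0.30 and 0 CPM in sinusoids. It passed the filter on low values only through the ZKS libraries, so its calls as higher there are no support. Pericytes and sinusoids overlapped near 0. The other genes of the list that rose in ZKS cells against pericytes were atf6, MAFA, atf5a and atf5b, and crema fell in ZKS cells against both groups.

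Of 25 genes on a list of genes with textbook AP-1 sites, 4 rose and 11 fell in ZKS cells against pericytes (median -0.69). The list was matched by symbol, and AP-1 sites were not looked for in these zebrafish genes. The share that rose, 16%, lay near the 15.2% of all genes, and the share that fell was 44%, against 22.0%. Those that rose were the matrix protease genes MMP9 and mmp13b, the cyclin gene CCND1 and the TIMP2 copy ENSDARG00000075261. MMP9 was at 32561 and 27586 CPM in ZKS cells, against 444.6 and 277.5 CPM in pericytes and against 715.7 and 41.9 CPM in sinusoids (log2 change against pericytes 6.05 ± 1.03, SE; limma, adjusted p = 0.00547). mmp13b was at 171.9 and 157.7 CPM in ZKS cells, against 0 and 1.15 CPM in pericytes and against 0.60 and 0 CPM in sinusoids. It too passed the filter only through the ZKS libraries. The ZKS libraries, lowest for fosab and jun, were thus highest for these 2 genes. The adhesion genes sele (mean 18.4 CPM in pericytes) and SELE (ENSDARG00000042138, 44.6 CPM) and the prostaglandin synthase gene PTGS2 (ENSDARG00000004539, 293.5 CPM) fell and were listed with 0 reads in both ZKS libraries (limma, adjusted p = 0.000284 to 0.000799). Against sinusoids 7 rose and 11 fell (median -1.52), or 28% and 44% against 13.7% and 17.9% of all genes. In pericytes against sinusoids 9 rose and 8 fell (median 0.29), or 36% and 32% against 14.4% and 10.9% of all genes, led by sele (mean 18.4 CPM in pericytes and 6289 CPM in sinusoids) and LMNA (196.8 and 3.11 CPM).

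Of 29 tested upstream kinases and serum response factors, 1 rose and 7 fell in ZKS cells against pericytes (median -0.82). The share that fell, 24.1%, lay near the 22.0% of all genes, and 3.45% rose, against 15.2%. The gene that rose was MAP2K1, the MEK1 kinase that activates ERK, at 298.5 and 272.2 CPM in ZKS cells, against 45.2 and 38.7 CPM in pericytes and against 7.85 and 5.73 CPM in sinusoids (log2 change 2.38 ± 0.27, SE; limma, adjusted p = 0.00131). The SRF coactivator genes mrtfab and mrtfbb and the p38 kinase gene mapk11 were among those that fell. So was MAPK10, which passed the filter only through the pericyte libraries, at 10.7 and 4.01 CPM. Against sinusoids 5 rose and 5 fell (median 0.25), or 17.2% each way, near the 13.7% and 17.9% of all genes. In pericytes against sinusoids 6 rose, among them MAP2K1, MAPK9 and mrtfab (median 0.53), or 20.7% against 14.4% of all genes. The marker sums given above moved with the niche groups beside these lists too.

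**Figure D4:**
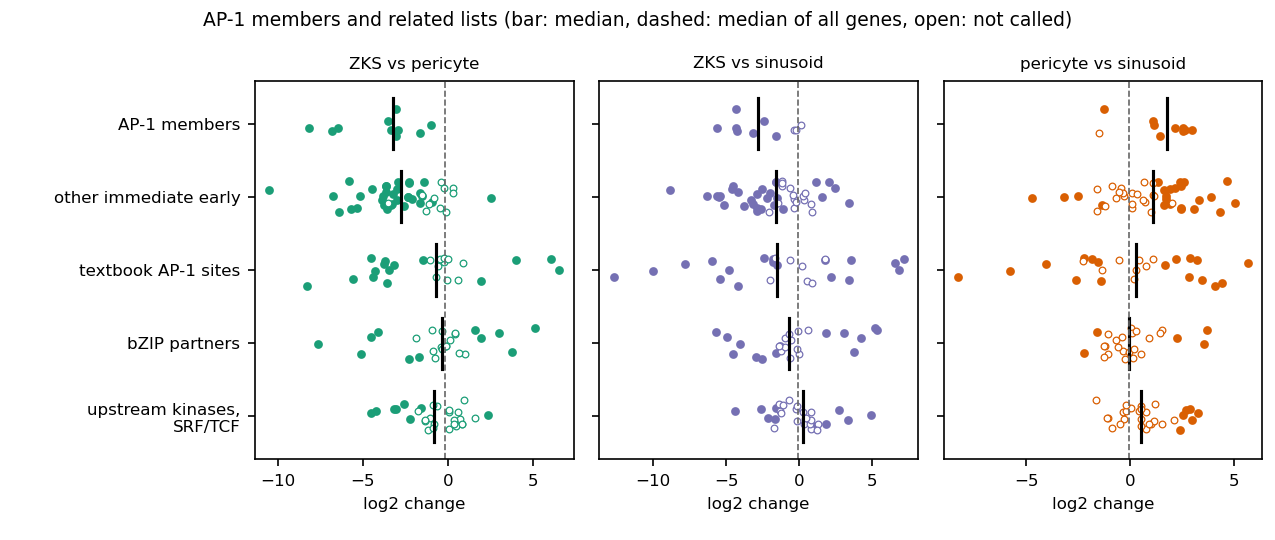
Log2 change of each tested gene among the AP-1 genes and the 4 lists around them, in the 3 niche comparisons (first group minus second); each point is 1 gene, filled where limma called it and open where it did not, the bars mark list medians and the dashed lines the median of all genes. The other immediate early genes lie mostly on the side of the AP-1 genes (median -2.75 in ZKS cells against pericytes), and the bZIP partners lie around 0 (median -0.32).

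In the DP cells the AP-1 genes together took 0.163% and 0.0470% of the library in treated, 0.00463% and 0.0319% in co-cultured and 0.603% and 0.499% in uncultured libraries. The 3 groups did not overlap in this sum, which was highest in uncultured cells. Members listed at 0 numbered 4 and 5 in treated, 7 and 4 in co-cultured and 2 and 2 in uncultured libraries. Of 15 housekeeping genes, 2 and 4 were also listed at 0 in treated, 3 and 2 in co-cultured and 2 and 2 in uncultured libraries, so a 0 says only that a gene is listed at 0.

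fosab was at 452.2 and 150.7 CPM in treated, 0.9 and 0.3 CPM in co-cultured and 2135 and 1706 CPM in uncultured libraries. Its 3 groups lay in separate ranges, but the share of all genes with such separation was not counted. Its log2 change in co-cultured against uncultured cells, -10.35 ± 0.93, ranked 1 from the lowest of 8795 genes tested but was not called (SE; limma, adjusted p = 0.168). In treated against co-cultured cells its log2 change of 7.28 ± 0.93 ranked 7 from the highest (limma, adjusted p = 0.293), and in treated against uncultured cells it was -3.07 ± 0.93 (limma, adjusted p = 0.232). fosb was listed at 0 in all 4 cultured libraries, treated and co-cultured, against 120.5 and 91.8 CPM in uncultured libraries. fosl1a was likewise listed at 0 in the cultured libraries and was at 0.2 and 2.8 CPM in uncultured ones. fosl2 was the steadiest of the family, at 64.4 and 63.3 CPM in treated, 44.5 and 53.0 CPM in co-cultured and 86.1 and 41.1 CPM in uncultured libraries; the uncultured range enclosed all others. fosaa and atf3 were listed at 0 in all 6 DP libraries.

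Replicates of the Jun genes disagreed in the cultured cells, and DP replicates agreed poorly over all genes tested. Across those genes, on the log2 scale, replicates correlated at r = 0.44 in treated, 0.481 in co-cultured and 0.579 in uncultured cells. In the niche groups these values were 0.9 to 0.984. The JUNB copy ENSDARG00000104773 was at 930.8 and 10.5 CPM in treated, 0 and 144.2 CPM in co-cultured and 1763 and 1815 CPM in uncultured libraries. The copy ENSDARG00000074378 was at 1.8 and 226.9 CPM in treated, 0.9 and 5.0 CPM in co-cultured and 1652 and 1237 CPM in uncultured libraries. Both copies were lower in all 4 cultured libraries than in the uncultured ones, while the treated and co-cultured ranges overlapped and the treated library that was high for one copy was low for the other. Their log2 changes in co-cultured against uncultured cells were -7.27 ± 2.96 and -8.80 ± 2.21 (SE; limma, adjusted p = 0.451 and 0.194). jun was at 172.5 and 0 CPM in treated, 0 and 116.3 CPM in co-cultured and 253.7 and 87.2 CPM in uncultured libraries, and all 3 groups overlapped. jund was at 4.4 and 18.7 CPM in treated, 0 and 0.1 CPM in co-cultured and 17.6 and 4.4 CPM in uncultured libraries.

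**Figure D5:**
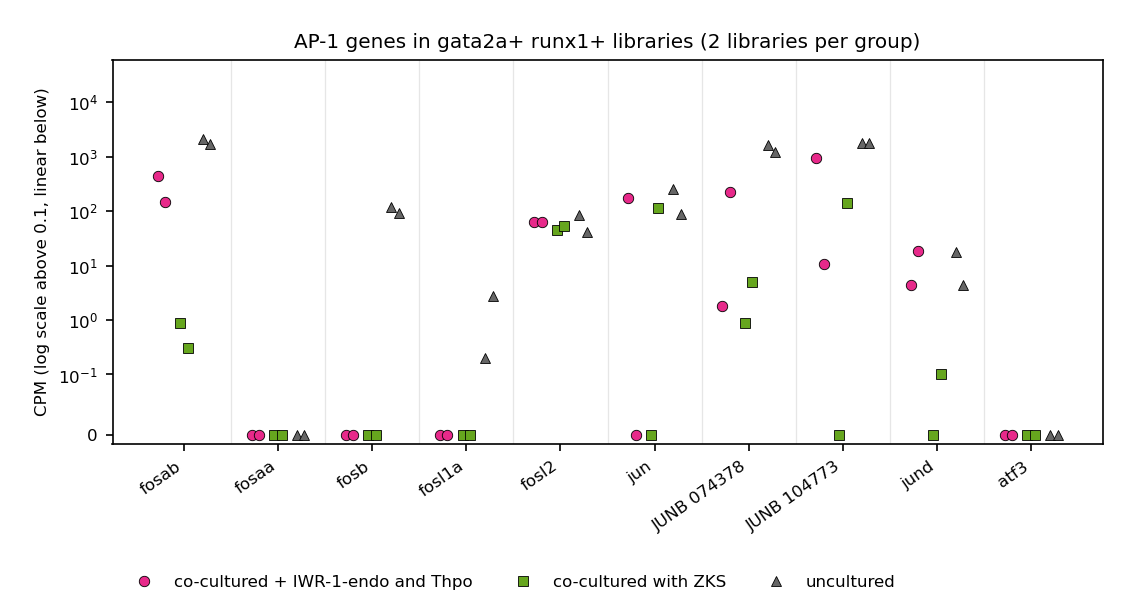
CPM of the 10 AP-1 genes in the treated, co-cultured and uncultured DP libraries, on an axis that is logarithmic above 0.1 CPM and linear below it; each point is 1 library. fosab and both JUNB copies are highest in uncultured libraries, and fosl2 stays between 41.1 and 86.1 CPM. Both JUNB copies and jun spread widely between replicates of treated cells. So do jun and the JUNB copy ENSDARG00000104773 between replicates of co-cultured cells.

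Of the 10 members, 7 passed the filter on low values in the DP set, and limma called 0 of the 7 in each DP comparison, where the share of all 8795 genes called was 0% as well. At an unadjusted p under 0.05 (limma), fosab and the JUNB copy ENSDARG00000074378 stood among 996 of the 8795 genes in co-cultured against uncultured cells. Both stood among 1183 of the 8795 in treated against uncultured cells. In treated against co-cultured cells, fosab was the only member among 844 of the 8795. fosb was also under 0.05 in both comparisons with uncultured cells, but its direction there was set by the filter. Among the 7, both treated libraries lay below both uncultured ones for fosab and both JUNB copies, and both co-cultured libraries did so for these 3 and jund. Over all genes tested this held for 25.9% in treated and 23.6% in co-cultured cells, and the reverse held for 14.1% and 13.1%. fosb passed the filter only through its uncultured libraries and is not counted here. Both treated libraries lay above both co-cultured ones for fosab, fosl2 and jund, as for 14.5% of all genes tested, while the reverse held for 15.5%. Leaving out any 1 of the 4 libraries compared did not bring a member under the threshold in the DP comparisons. The ZKS and stromal marker list (7 identifiers) summed to 35.1 and 0.2 CPM in treated, 0 and 0 CPM in co-cultured and 114.2 and 0 CPM in uncultured libraries. Of the macrophage list (12 identifiers), 8 were above 0 in uncultured replicate 2, among them IRF8 (130.5 CPM) and csf1ra (58.1 CPM). Only 1, cd74a, was above 0 in each other DP library. Its level was 6314 and 4653 CPM in treated, 2942 and 4986.5 CPM in co-cultured and 2884 and 3262 CPM in uncultured libraries. The part of such cells in the DP results was not tested.

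Of the other immediate early list, 38 genes passed the filter in the DP set and limma called 0 of them in each comparison. Their median log2 change was -3.79 in co-cultured against uncultured cells (-0.45 over all genes), 0.038 in treated against co-cultured cells (0 over all genes) and -2.81 in treated against uncultured cells (-0.64 over all genes, and -0.505 without TMM scaling). Some of them, such as NR4A1, EGR3, DUSP2 and klf2b, passed the filter only through the uncultured libraries. Their direction against uncultured cells was set by the filter, so the medians against uncultured cells are a description and no support. Chosen after their values were seen, 3 genes of the lists are given as examples. JDP2 (ENSDARG00000020133) was at 0.3 and 1.2 CPM in treated, 0.2 and 2.8 CPM in co-cultured and 346.0 and 451.8 CPM in uncultured libraries. NR4A1, an immediate early nuclear receptor, was listed at 0 and 0 CPM in treated, 0.1 and 0 CPM in co-cultured and 487.5 and 824.6 CPM in uncultured libraries. DUSP1, an immediate early phosphatase that acts on MAP kinases, was at 1507 and 1900 CPM in treated, 9.4 and 77.5 CPM in co-cultured and 3556 and 3318 CPM in uncultured libraries. DUSP1 thus had the order of fosab, with treated cells between co-cultured and uncultured ones, whereas JDP2 and NR4A1 were near 0 in all 4 cultured libraries. No gene was called in these comparisons, so these orders describe the libraries.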

How the data were processed

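Each library has its own deposited table of CPM, which the authors computed from read counts, covering 32047 gene identifiers. HISAT2 2.1.0, Subread 1.6.4 and build GRCz11 are named in the submitters' processing notes, without settings. In the niche libraries 1 read is worth a fixed CPM step, and dividing by it gave whole reads, within 0.1 read, for 100% of values. For ZKS replicate 2 the step was read from all its values. CPM were TMM-scaled (edgeR 4.0.16) and tested on log2(CPM + 1) with limma 3.58.1 in R 4.3.3, trended and two-sided. Genes needed 1 CPM in at least 2 of the 6 libraries of a set, which shared 1 fit. Adjusted p is Benjamini-Hochberg over all genes tested (15916 niche, 8795 DP), with a threshold of 0.05. A log2 change on this scale understates changes of low genes. Tests were tried on simulated data. The members, lists and named genes (up to 4 called genes of each list with the smallest adjusted p, and any count of 5 or fewer by name) were chosen with earlier results of these data known. PCR reads are not independent molecules, so read floors cover counting error only. Columns of other samples numbered 0. Replicate numbers did not pair samples. Sequences were not analysed here, and a named gene of the lists is not reported here.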

Additional observations from a re-analysis of the deposited data

How the results depend on the processing

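Alternatives were CPM as deposited, no filter on low values, pseudocounts of 0.5 and 5, a fit of only the 4 libraries compared, a replicate block, each of these 4 libraries left out, and, for the niche set, edgeR on recovered reads. Libraries of the third group of a set, which share the fit, were not left out. The counts of AP-1 genes in this section include fosaa, which the counts out of 9 in the Results leave out. In ZKS cells against pericytes the 9 other members were called in the fit used there, where 37.2% of all genes tested were called. fosaa was called too, but its direction in comparisons with pericytes was set by the filter. Its calls within the counts of this section are therefore no support. Called AP-1 genes in pericytes against sinusoids numbered 9, against 5 with only the 4 libraries compared and 3 with edgeR. Over all genes the counts were 4036, 2335 and 1260. On recovered reads edgeR called 5792 genes in ZKS cells against pericytes and 4130 in ZKS cells against sinusoids. With a library left out, called AP-1 genes ranged from 8 to 8 in ZKS cells against pericytes, 6 to 7 in ZKS cells against sinusoids and 5 to 9 in pericytes against sinusoids. Over all genes these ranges were 1832 to 4051, 1792 to 4698 and 1981 to 3847. Uncalled values changed sign in 14 cases, and no called value did. With CPM as deposited, the JUNB copy ENSDARG00000104773 was at 0.038 in ZKS cells against sinusoids, and fosl2 at 0.099 and jund at 0.041 in treated against uncultured DP cells. The other sign changes came from leaving out a library. In ZKS cells against sinusoids the JUNB copy ENSDARG00000104773 then ranged from -0.553 to 0.118 and ENSDARG00000074378 from -0.638 to 0.001. In co-cultured against uncultured DP cells fosl2 ranged from -0.875 to 0.13. In treated against co-cultured cells jun ranged from -3.462 to 3.818, ENSDARG00000104773 from -0.671 to 6.617 and ENSDARG00000074378 from -0.377 to 5.97. In treated against uncultured cells fosl2 ranged from -0.605 to 0.4 and jund from -1.086 to 0.816. The cause was not tested. Without a replicate 1 group has a single library, which is taken to vary like the others. Same-numbered libraries did not deviate together (correlation of deviations -0.012 to 0.064 in the niche and -0.01 to 0.001 in the DP set). Under the replicate block 9, 7 and 8 AP-1 genes were called in the niche comparisons, in the order above, and 0 in the DP comparisons; over all genes the counts were 5754, 4891 and 3813.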
